A study of Homo sapiens with 6 samples.

Results

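Transcripts of the cohesin ring and its regulators were measured in AGS, an established gastric adenocarcinoma cell line of human origin, at 48 h after siRNA transfection. The set held 10 genes, taken by name, of 22438 genes with a symbol on the array. They were the ring subunits SMC1A, SMC3, RAD21, STAG1 and STAG2, the loader NIPBL, the release factor WAPL, the associated proteins PDS5A and PDS5B, and the acetyltransferase ESCO2. A probe was assigned to a gene when its RefSeq accession mapped to that gene, which gave 17 probes of 58195. All 10 genes had at least 1 probe. Total RNA was hybridised to one-colour Agilent arrays, 1 for each of the 3 samples in a group. The control group received the nontargeting siRNA, si-Control, and the other group received si-C1GALT1-3, directed at C1GALT1, the enzyme that makes the core 1 structure of mucin-type O-glycans. Both groups were thus transfected cells of 1 line, and the knockdown rested on a single siRNA. No source states that the 3 samples of a group came from separate cultures, so p-values measure only the spread between these samples, which may be technical.

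Cohesin is a ring-shaped complex that holds sister chromatids together from replication to anaphase and extrudes loops of chromatin in interphase. SMC1A and SMC3 form the hinge and heads of the ring, RAD21 closes it, and either STAG1 or STAG2 binds to RAD21. NIPBL loads the ring on DNA, WAPL with a PDS5 protein opens it, and ESCO2 acetylates SMC3 during replication so that the ring stays closed. Genes of this complex are mutated in several cancers, STAG2 among the most often.

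The promoters of PDS5A and PDS5B are shown because PDS5B was the 1 gene of the set past the threshold and PDS5A is its paralog. RefSeq windows of 250 bases before the start were taken on GRCh38.p14, and 8 of the 10 genes had one. PDS5A lies at chr4:39977912-39978161 on the minus strand and PDS5B at chr13:32586202-32586451 on the plus strand. The capitals mark a CCAAT box, read here from the other strand.
PDS5A: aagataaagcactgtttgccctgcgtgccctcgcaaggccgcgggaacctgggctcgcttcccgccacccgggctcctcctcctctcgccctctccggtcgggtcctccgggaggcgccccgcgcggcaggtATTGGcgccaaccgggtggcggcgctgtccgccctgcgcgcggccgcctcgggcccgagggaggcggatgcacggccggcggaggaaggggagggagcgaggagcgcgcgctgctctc
PDS5B: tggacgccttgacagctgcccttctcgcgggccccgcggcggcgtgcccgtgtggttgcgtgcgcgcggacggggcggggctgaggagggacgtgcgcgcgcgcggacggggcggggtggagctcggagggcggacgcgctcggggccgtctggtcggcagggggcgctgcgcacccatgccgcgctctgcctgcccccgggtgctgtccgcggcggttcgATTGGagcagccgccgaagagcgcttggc
The CCAAT match lay 118 bases before the start in PDS5A and 29 bases before it in PDS5B. Over the 11 windows of these 8 genes, some of which had several starts, 6 held CCAAT on either strand, against 32.0% of all 35116 windows. The letters TTTGAA, a cell cycle element, were in 1 window, that of SMC3, against 13.3% of all. The E2F words TTTGGCGC, TTTCCCGC, TTTCGCGC and TTTGCCGC were in 4 windows, of NIPBL, SMC1A, STAG1 and STAG2, against 2.79% of all. No CCAAT match overlapped an E2F match in these windows, both strands were searched, and a match describes letters, not binding.

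C1GALT1 itself was measured first. Its log2 signal on the si-Control arrays was 12.22, 13.03 and 12.62, and on the si-C1GALT1-3 arrays it was 11.76, 11.98 and 11.13. All 3 knockdown arrays lay below all 3 control arrays. The difference was -1.0003 ± 0.31 on the log2 scale (SE, n = 3 per group, limma, adjusted p = 0.27). Here and below, errors of differences are standard errors of the limma fit. A probe was called changed at an unadjusted p under 0.01 with at least a 2-fold difference, and C1GALT1 missed the p threshold.

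Between 66.2% and 72.7% of spots were well above background on each array, and no gene spot was saturated. One rectangle of the si-Control replicate 2 array was dim, with a median log2 deviation of -1.69 inside it against 0.44 outside. It covered 9712 gene spots, 15.9% of them, and its spots were set to missing on that array. Each replicate number shared a slide, with si-Control and si-C1GALT1-3 in fixed positions on it, so position and treatment cannot be told apart. In these bulk samples, fewer cells of a type and less RNA per cell cannot be told apart either. The epithelial markers EPCAM, KRT8, KRT18 and KRT19 were bright on every array, EPCAM for one at a mean log2 signal of 15.57 in si-Control and 15.72 in si-C1GALT1-3, and CDH1 was dim at 7.60 and 7.81. Of the 4 immune, 4 fibroblast and 3 endothelial marker genes, 0 passed by their gene's probe. However, 2 of 5 probes for the immune marker PTPRC rose, by 2.41 and 1.90 on the log2 scale, while its gene's probe gave -0.33. The probe that gave 2.41 was well above background on 0 of 3 control and 2 of 3 knockdown arrays, so that size is not exact. Not all of these marker genes were dim. Mean log2 signals in si-Control were 13.97 for PTPRC, 13.32 for PDGFRB, 10.30 for COL1A1 and 9.90 for VWF. The others ran from 3.79 for COL1A2 to 8.92 for COL3A1. At an unadjusted p under 0.05 (limma), VWF gave -1.03, PDGFRB -0.81 and COL3A1 1.17. A second probe gave 0.45 for VWF and 0.13 for PDGFRB, that of PDGFRB not well above background on any array. The part of these markers in the cohesin values was not tested.

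Of the 10 cohesin genes, 1 was called changed, PDS5B, which fell. Over the array 3.41% of genes were called, 1.33% lower and 2.08% higher. Of the 17 probes 1 was called, against 2.64% of all probes, 0.991% lower and 1.65% higher. The median log2 difference over the 10 genes was -0.17, against 0.02 over all genes, and 7 of the 10 had a lower value. The 9 genes other than PDS5B ranged from -0.59 to 0.69. The 95% interval of the difference lay within 2-fold for 5 of the 10 genes, and for 51.8% of all genes. For 9 of the 17 probes it did, against 48.2% of all probes. At an unadjusted p under 0.05, 2 of the 10 genes were lower, PDS5B and SMC1A, and so were 1603 of all 22438 genes (7.14%). After adjustment over all probes, 0 of the 10 genes were under 0.05, as against 0.138% of all genes and 49 probes, a count that was 0 in each fit without 1 array and 545 with dim probes left out. The groups did not overlap for 8 of the 17 probes, 4 of them lower, against 21.5% of all probes, 10.4% lower. Among probes with all 3 control values, 4 of 12 cohesin probes were apart, against 19.3% of all such probes. Among those with 2 control values, 4 of 5 were apart, against 32.6%. The first 4 belonged to SMC1A, PDS5A and PDS5B and the second 4 to STAG2 and NIPBL. Probes of 1 gene are not independent, so these probe counts overstate the number of genes apart. By gene, 4 of the 10 were apart, against 5667 of all 22438 genes.

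**Figure D1:**
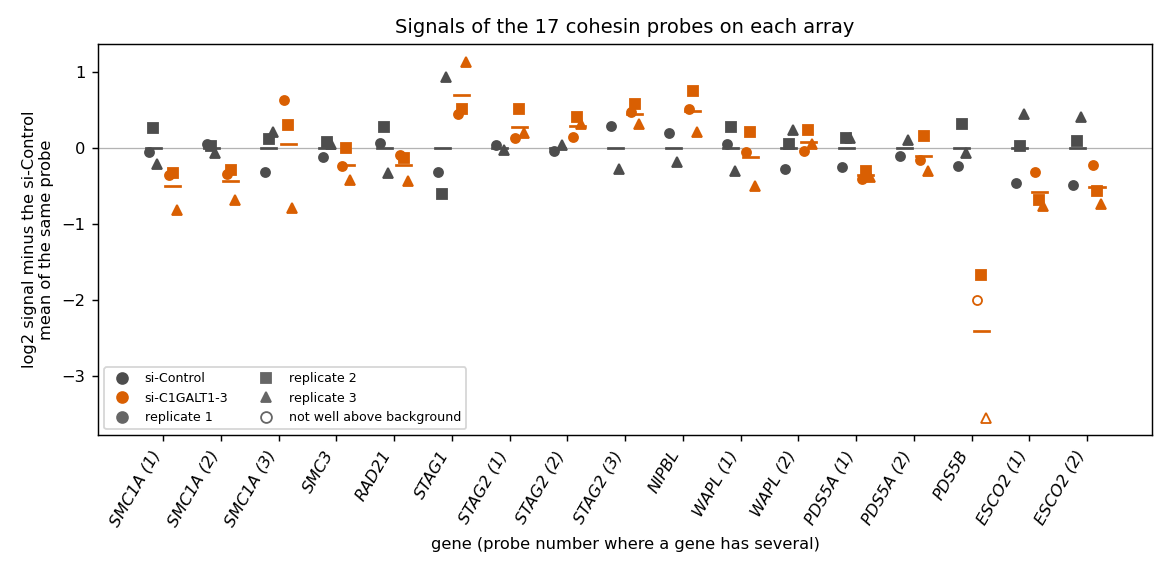
Log2 signal of each of the 17 cohesin probes on each array, less the mean of that probe on the si-Control arrays; grey points are si-Control, orange points si-C1GALT1-3, marker shapes give the replicate, bars are group means and open points were not well above background. PDS5B on the 3 knockdown arrays lies apart below its control points, and the other probes have means within 1 log2 unit of 0.

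PDS5B was the only gene of the set that fell past the threshold. PDS5B binds the ring, where it takes part in release with WAPL and in cohesion with sororin. Its log2 signal was 6.76, 7.32 and 6.93 on the si-Control arrays and 5.005, 5.33 and 3.45 on the si-C1GALT1-3 arrays. All 3 knockdown values lay below all 3 control values, and replicate 3 was the lowest. The difference was -2.41 ± 0.52 on the log2 scale (95% interval -3.69 to -1.13, limma, adjusted p = 0.16). The probe was dim. Its processed intensity was 144, 161 and 84.0 on the control arrays and 38.9, 46.0 and 10.2 on the knockdown arrays. It was well above background on 3 of 3 control arrays and on 1 of 3 knockdown arrays, that of replicate 2, so the size of the fall is not exact. With normexp background correction and an added offset of 50 it was -1.02 (limma, adjusted p = 0.048). An offset of that size by itself narrows log2 differences of a probe this dim, and its share in the smaller value was not tested. Within slides the log2 differences were -1.76, -1.99 and -3.48. The call was lost when any 1 si-Control array was left out, at -2.53 without replicate 1 (limma, adjusted p = 0.26), -2.25 without replicate 2 (limma, adjusted p = 0.25) and -2.45 without replicate 3 (limma, adjusted p = 0.23), and it was kept when any 1 knockdown array was left out. PDS5B had this 1 probe only. The study named PDS5B from these arrays, so its fall is not independent evidence of a direction.

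PDS5A, the paralog of PDS5B, was not called by either of its probes. By probe A_24_P186216 its log2 signal was 9.36, 9.73 and 9.73 on the si-Control arrays and 9.20, 9.30 and 9.22 on the si-C1GALT1-3 arrays, which did not overlap. That difference was -0.36 ± 0.16 (limma, adjusted p = 0.39). The other probe of PDS5A, A_24_P52004, lost si-Control replicate 2 to the dim region and gave -0.10 ± 0.21. Within arrays, the change of PDS5B against PDS5A was -2.15 by the gene probes and -2.05 by the other probe of PDS5A. An exact two-sided permutation test that ignored the slides gave p = 0.1 for each, the smallest it could give with these sample numbers. The knockdown and control arrays did not overlap in this comparison. PDS5B, the 1 gene called, already did not overlap by itself, so the test adds no separate support for its fall. The change was -4.82 with the dim region kept and -0.75 with normexp and its offset, and it uses the PDS5B values near background.

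None of the 5 ring subunits was called (0 of 5), and their differences ran from -0.44 to 0.69. SMC1A had the lowest difference of the 5. By probe A_33_P3290909 its log2 signal was 12.52, 12.49 and 12.41 on the si-Control arrays and 12.13, 12.18 and 11.79 on the si-C1GALT1-3 arrays. The groups did not overlap, and the difference was -0.44 ± 0.16 (95% interval -0.83 to -0.055, limma, adjusted p = 0.31), so it did not pass. A further probe of SMC1A, A_33_P3290914, gave -0.50 ± 0.21, and a dim probe, A_24_P942604, gave 0.05 ± 0.40. SMC3, the partner of SMC1A in the ring, gave -0.22 ± 0.16 (95% interval -0.62 to 0.18, limma, adjusted p = 0.61). Its arrays were 12.10, 12.30 and 12.28 in si-Control and 11.98, 12.23 and 11.81 in si-C1GALT1-3, which overlapped. RAD21, the subunit that separase cuts at anaphase, gave -0.22 ± 0.21 (95% interval -0.74 to 0.29), from 13.43, 13.63 and 13.02 to 13.26, 13.23 and 12.93. These groups also overlapped. Within slides the differences had 1 sign for both genes, at -0.12, -0.07 and -0.47 for SMC3 and -0.16, -0.41 and -0.09 for RAD21, and neither was called with the slide as a block.

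The STAG subunits had higher values in si-C1GALT1-3, and neither was called. STAG1 gave 8.57, 8.29 and 9.83 on the si-Control arrays and 9.34, 9.41 and 10.03 on the si-C1GALT1-3 arrays. Control replicate 3 lay above 2 of the knockdown arrays, so the groups overlapped. Within slides STAG1 was higher on all 3, by 0.76, 1.12 and 0.20. The difference was 0.69 ± 0.45 (95% interval -0.43 to 1.81, limma, adjusted p = 0.56), and with the slide as a block it was again not called (limma, adjusted p = 0.28). Without that control array it was 1.16 and passed the threshold (limma, adjusted p = 0.21), and without si-Control replicate 2 it was 0.39. The spot of STAG1 lay 2 columns outside the dim region, in a column whose median deviation over the same lines was -0.24. STAG2 had 3 probes, each of which lost si-Control replicate 2 to the dim region. By probe A_33_P3304293 the 2 remaining control arrays gave 12.56 and 12.001, and the knockdown arrays gave 12.75, 12.85 and 12.59. All 3 knockdown values were above both controls. The difference was 0.45 ± 0.23 (95% interval -0.16 to 1.05, limma, adjusted p = 0.48). It was 0.73 without si-Control replicate 1 and 0.17 without replicate 3. The other probes of STAG2 gave 0.28 ± 0.19 and 0.29 ± 0.16. The change of STAG2 against STAG1 was 0.06 in the exact two-sided permutation test (p = 1).

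NIPBL, the loader, was higher on every knockdown array than on the 2 control arrays that could be read. Its log2 signal was 10.67 and 10.29 in si-Control replicates 1 and 3, and 10.99, 11.23 and 10.68 in si-C1GALT1-3. The difference was 0.49 ± 0.24 (95% interval -0.15 to 1.12, limma, adjusted p = 0.47), which did not pass. WAPL, which opens the ring, was measured by a pair of probes that differed in sign. One gave -0.12 ± 0.25 and the other 0.08 ± 0.18. Its log2 signal by probe A_32_P174908 was 11.78, 11.999 and 11.42 in si-Control and 11.67, 11.94 and 11.23 in si-C1GALT1-3, and the groups overlapped.

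ESCO2 had lower values on 2 of 3 slides and was not called. By probe A_33_P3326210 its log2 signal was 10.20, 10.69 and 11.11 in si-Control and 10.35, 9.98 and 9.90 in si-C1GALT1-3. Replicate 1 of the knockdown lay above replicate 1 of the control, and the groups overlapped. Within slides the differences were 0.15, -0.70 and -1.21. The difference over all arrays was -0.59 ± 0.27 (95% interval -1.26 to 0.09, limma, adjusted p = 0.42), and the second probe gave -0.51 ± 0.28. Against ESCO1, its paralog, ESCO2 changed by -0.77 within arrays, and by -0.69 with its second probe. The exact two-sided permutation test gave p = 0.1 for each, the smallest possible here. ESCO1 itself had a higher value, at 0.18 ± 0.16, so the change against it is not that of ESCO2 alone.

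**Figure D2:**
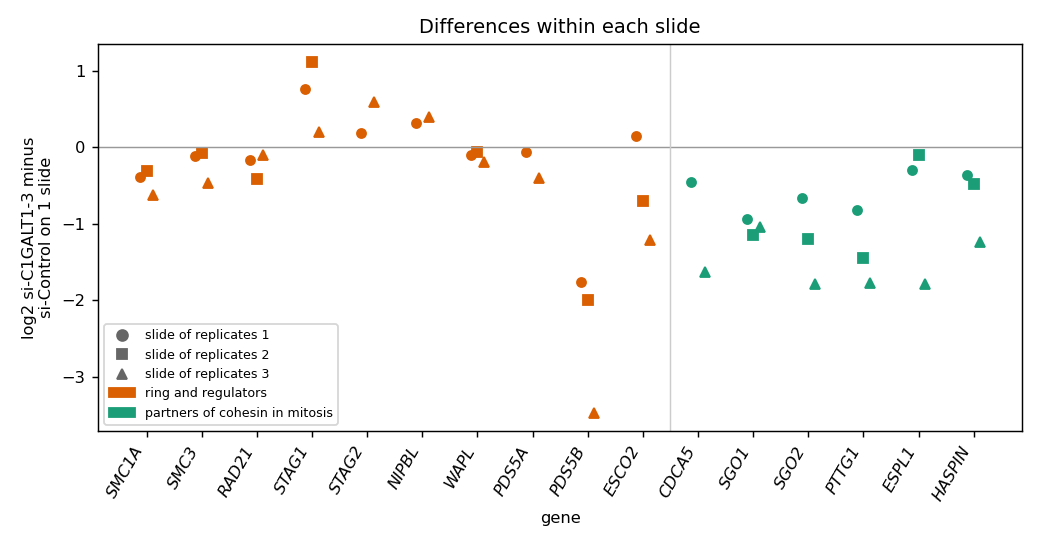
Log2 difference of si-C1GALT1-3 from si-Control within each slide, for the 10 cohesin genes and 6 partners of cohesin in mitosis; marker shapes give the slide of replicates 1, 2 and 3. Each gene is shown by 1 probe. By these probes, PDS5B, SMC1A, SMC3, RAD21 and WAPL had lower values on each of the 3 slides. STAG1 had higher values on each, and ESCO2 had lower values on 2 of 3. STAG2, NIPBL, PDS5A and CDCA5 have points for 2 slides. The probe of WAPL not shown gave 0.24, 0.19 and -0.18. Those of SMC1A not shown gave -0.30, -0.60 and -0.61, and 0.94, 0.19 and -0.99. The 6 partners were picked from the 10 measured, and each of the 6 had a lower value over all arrays. By their gene's probe over all arrays, the partners not shown gave 0.68 for MAU2, 0.18 for ESCO1, 0.09 for HDAC8 and -0.04 for CTCF.

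Values for STAG2, NIPBL and PDS5A rested on how the dim region was treated. With its spots kept, the 5 cohesin probes in it gave log2 differences of 1.16 to 2.99 with standard errors of 0.75 to 2.30. Set to missing, they gave -0.10 to 0.49. With the region kept, 2.03% of all probes were called and PDS5B was again the 1 cohesin gene called. On the si-Control replicate 2 array, the processed intensity of these probes was 8.65 to 511.

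**Figure D3:**
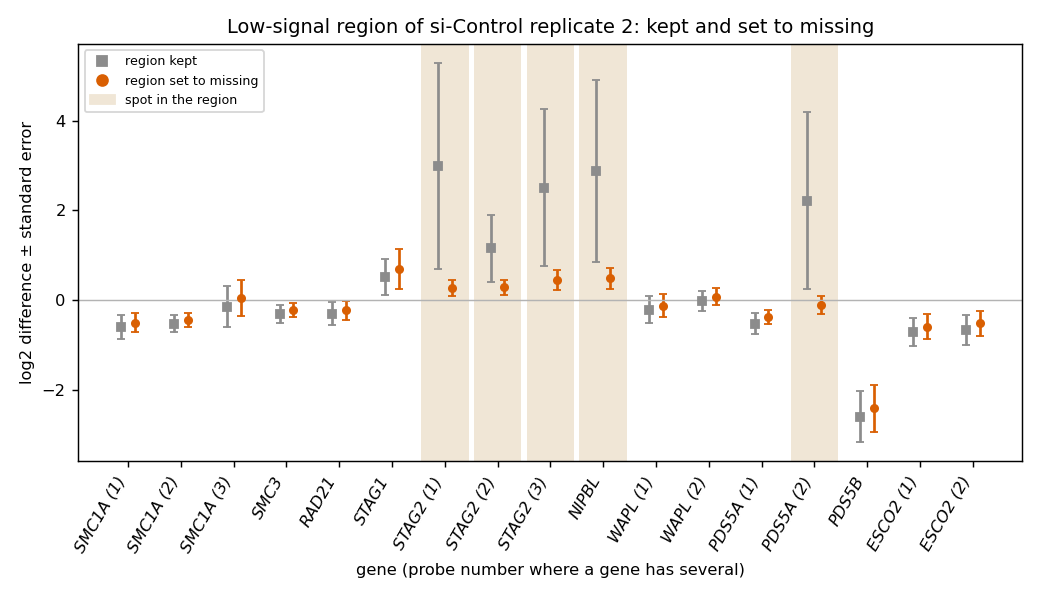
Log2 difference and standard error of each cohesin probe with the dim region of si-Control replicate 2 kept (grey squares) and set to missing (orange circles); shading marks probes with a spot in the region. The 5 shaded probes move from 1.16 to 2.99 when kept to -0.10 to 0.49 when set to missing.

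Among the partners of cohesin, SGO2 and PTTG1, which act in mitosis, fell. Of the 11 partner genes listed, 10 had a probe, and PLK1 was not analysed here. Of these 10, 2 were called, both lower, against 3.41% of all genes called and 1.33% called lower. The median log2 difference over these 10 was -0.71, against 0.02 over all genes. The list holds 4 genes that the study had named from these arrays, SGO1, SGO2, PTTG1 and CDCA5. Both called genes are among them, so neither the calls nor the median are independent evidence of a direction. SGO2, which guards centromeric cohesin, fell by 1.22 on the log2 scale (SE 0.30, limma, adjusted p = 0.20). With the slide as a block the call was lost (limma, adjusted p = 0.22). PTTG1, the securin that holds separase inactive until anaphase, fell by 1.35 (SE 0.28, limma, adjusted p = 0.15). PTTG1 has near-identical copies, so its probe may read them too. SGO1, the companion of SGO2, had log2 differences of -1.04 by its gene's probe (limma, adjusted p = 0.26), which was not called, and -1.22 by A_23_P29723 (limma, adjusted p = 0.14), which was. With the slide as a block the first was called and the second was not. The largest rise of the list was MAU2, the partner of NIPBL, at 0.68 (limma, adjusted p = 0.44). It lost si-Control replicate 2 to the dim region and gave 2.55 with the region kept. CDCA5, the gene of sororin, which counters WAPL, gave -1.02 (limma, adjusted p = 0.25) and lost the same array to the dim region.

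Of the lists around cohesin, condensin held the 1 further call. Over the array 3.41% of genes were called, 1.33% lower, and at that share lists this short often hold 0 calls. In the fork cohesion list 0 of 7 genes were called, with the lowest CHTF18, a subunit of the clamp loader that aids cohesion, at -0.90 (limma, adjusted p = 0.24) and the highest TIPIN at 0.12. In condensin, the complex that compacts mitotic chromosomes, 1 of 8 genes was called, NCAPG2, at -1.16 (SE 0.26, limma, adjusted p = 0.17). NCAPG2 lost its call with the slide as a block (limma, adjusted p = 0.22). SMC4, shared by both condensins, gave -1.42 by its gene's probe (limma, adjusted p = 0.23), which was not called, and -1.32 by a second probe (limma, adjusted p = 0.17), which was. The second probe lost si-Control replicate 2 to the dim region and gave 1.52 with the region kept. With the slide as a block the gene's probe of SMC4 was called and its second probe was not. The study had named 2 of the 8 condensin genes from these arrays, NCAPG2 and SMC4, so their falls are not independent evidence of a direction. The highest condensin value was that of NCAPH, at 0.0016. The median log2 difference was -0.47 over the fork list, -0.37 over condensin, 0.06 over SMC5/6 and 0.24 over the meiotic list. In the SMC5/6 complex 0 of 6 genes were called, with NSMCE4A lowest at -0.60 and NSMCE2 highest at 0.19. Of 4 meiotic cohesin genes 0 were called, REC8 at 0.41 being the highest and SMC1B, near background, the lowest at 0.14. Probes of STAG3 and RAD21L1 disagreed. STAG3 gave -0.71, 0.04 and 0.22, and RAD21L1 gave 0.26, 1.67 and -0.59. The 1.67 of RAD21L1 rested on knockdown replicate 3, at 8.23 against 3.20 to 3.29 on the other 5 arrays, where the probe was not well above background, and within the other slides it was -0.02 and 0.06.

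**Figure D4:**
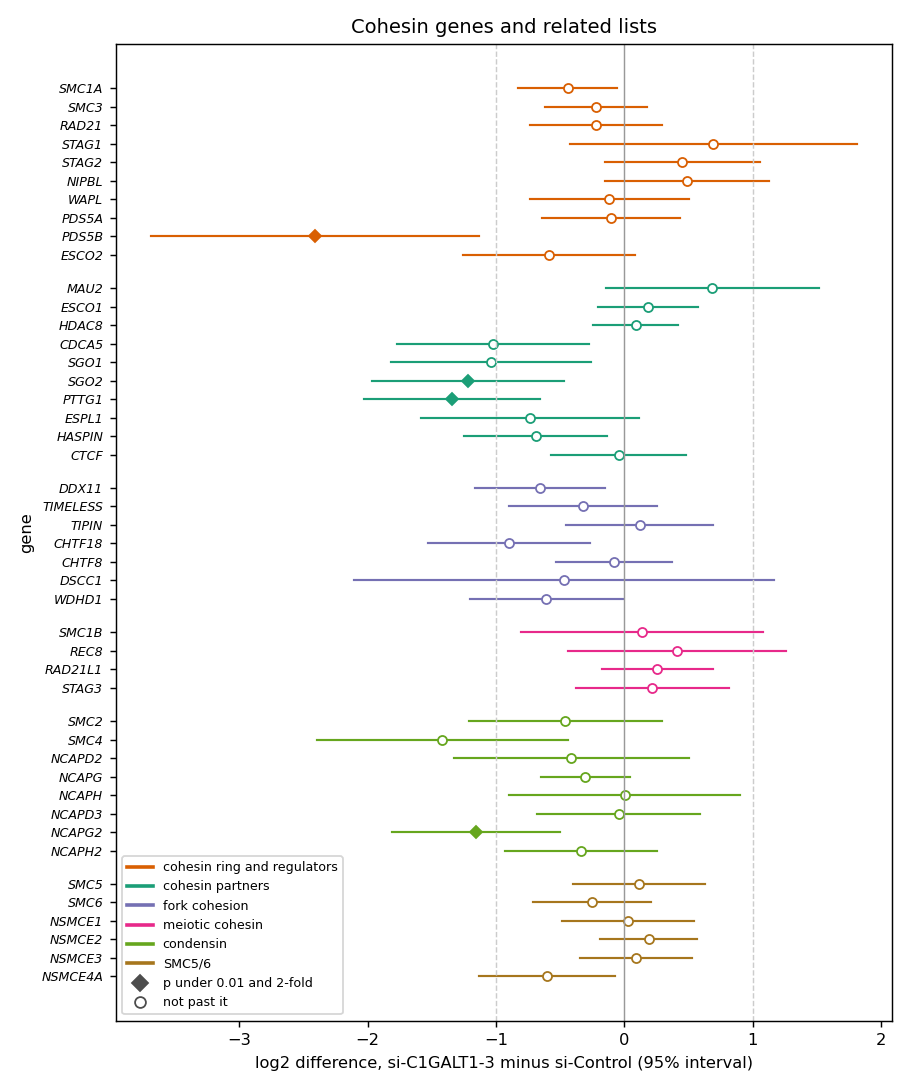
Log2 difference and 95% interval of each gene in the cohesin, partner and related lists, 1 probe per gene; filled diamonds passed p under 0.01 and 2-fold, and dashed lines mark 2-fold. PDS5B, SGO2, PTTG1 and NCAPG2 are the 4 filled points, all lower.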

How the data were processed

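RNA from 6 samples, 3 per group, was compared on 6 arrays. The authors deposited scanner output of Agilent Feature Extraction 10.5.1.1, whose processed intensity is background-subtracted and detrended within each array. They also deposited a table of background-subtracted intensity, equal to that column of the scanner output to within 4.8e-09. From the deposited intensity, log2 values were computed here, control spots left out, 100 to 424 outlier spots per array set to missing, and arrays quantile normalized. Spots in lines 113 to 288 and columns 59 to 115 of si-Control replicate 2 were also set to missing, and spots of a probe averaged. limma 3.58.1 in R 4.3.3 tested si-C1GALT1-3 minus si-Control over all 58195 probes, with Benjamini-Hochberg adjustment. The call of p under 0.01 and 2-fold is the study's threshold. A gene stands by its probe with the highest mean signal. Named are every member's probes, C1GALT1, and the called and extreme genes of each list. SGO1, CDCA5, STAG3, RAD21L1 and the markers stand outside this rule and were chosen after their values were seen. The members and lists were chosen with earlier results of these data known. Replicate numbers share a slide. Deviations from the group means correlated at 0.198, 0.215 and 0.329 between same-numbered arrays over 48794 probes. Arrays of different numbers were not compared in this way. The main fit and the permutation tests treated the arrays as unpaired, and the slide entered only as an alternative. The limma fit, the call and the t-test were tested on values simulated with independent normal noise. The earlier steps, slide effects and a background floor were not simulated. Alternatives covered the dim region, scaling, dim probes, the slide block, the prior, Student's t-test, outlier spots, normexp, the series table, the summary per gene, and each array left out. For the arrays the study's methods name limma, not the t-test. The number of arrays limits the precision.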

Additional observations from a re-analysis of the deposited data

How the results depend on the processing

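Among the values for cohesin genes, PDS5B kept its direction under all 18 alternatives, from -2.78 to -1.02, and its call under 13. It lost the call with Student's t-test (-2.41) and in the series table (-2.39), and its leave-one-out values ranged from -2.78 to -1.84. Without si-Control replicate 1 it was -2.53, without 2 it was -2.25 and without 3 it was -2.45. As a result the number of cohesin genes called was 0 with Student's t-test and in the series table, and 0 to 1 in leave-one-out fits, and the same held for probes and for genes called lower. Without si-Control replicate 3 the 1 gene called was STAG1, at 1.16, and its leave-one-out values ranged from 0.39 to 1.16. PDS5A reversed to 2.22 with the dim region kept and to 0.0067 with no normalization between arrays. Leave-one-out values ranged from -0.39 to -0.085 for RAD21, -0.33 to -0.12 for SMC3, 0.17 to 0.73 for STAG2, 0.29 to 0.68 for NIPBL, -0.23 to -0.0016 for PDS5A and -0.82 to -0.37 for ESCO2. The adjusted p of PDS5B was 0.047 with dim probes left out and 0.048 with normexp. WAPL had leave-one-out values of -0.28 to 0.073, reversed at 0.016 and 0.073. C1GALT1 was called, at -1.0003, with dim probes left out. CDCA5 was 0.0092 with the region kept. STAG2 against STAG1 ranged from -0.85 to 0.97 in leave-one-out fits, including -0.074 and -0.091. The partners called numbered 1 with the region kept and in the series table, 0 without normalization and with the t-test, 4 with dim probes left out and with normexp, and 0 to 2 in leave-one-out fits. Condensin genes called numbered 2 with 75th percentile scaling, dim probes left out and normexp, 0 without normalization and with the t-test, and 0 to 1 in leave-one-out fits. Over the array, 1538 probes were called, 896 with the t-test, 915 with normexp and 1135 to 1818 in leave-one-out fits. Of the called probes 62.5% were higher, against 40.2% with the region kept and 72.6% without normalization. With the slide as a block, SGO2 and NCAPG2 lost the call, SGO1 and SMC4 gained it by the gene's probe and lost it by the other probe, and no other call in these lists changed. The cause of each shift was not tested. Only 3 arrays a group and signal near background, as for PDS5B, limit what could be seen.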
